A study of Homo sapiens with 4 samples.

Results

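The AP-1 transcription factor genes FOS, FOSB, FOSL1, FOSL2, JUN, JUNB and JUND were followed in HGC-27 cells after knockdown of USP47, a ubiquitin-specific protease that removes ubiquitin from other proteins. HGC-27 is an established cell line from a human gastric carcinoma. The 7 genes were taken by symbol from 63568 gene identifiers, each matched 1 identifier, and all 7 passed the filter on low counts that left 21932 genes. They were selected on their fold changes between these groups in the counts of these 4 libraries, which were known when the genes were chosen, so fold changes and calls of these 7 genes are given as a description. The RNA-Seq held 4 libraries. In 2 of them the cells carried a lentiviral scrambled control (Control shRNA), and in the other 2 a lentiviral shRNA against USP47 (USP47 shRNA). Cells of both groups were infected with virus and, per the methods, selected with puromycin for stable knockdown. The design text speaks of a DMSO vehicle for control cells, but no label names a drug for these libraries. It calls the libraries of a condition biological duplicates, whereas the methods speak of triplicate samples and 2 libraries a group were analysed here. Neither source says whether they came from separate infections or carry the same USP47 shRNA, so p-values measure the spread between these libraries only.

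Total counts on genes lay between 15649899 and 20140273 per library. USP47 itself had 1357 and 1297 counts with Control shRNA and 749 and 309 with USP47 shRNA, so that 49.3% and 29.5% of the mean control level was left (log2 fold change -1.34, standard error, SE, 0.21). Of 12 epithelial and gastric markers, 6 stayed under 10 counts in every library, and KRT18 and KRT19, keratins of simple epithelium, had at most 1 count in any library. Other markers of this list were expressed. MUC1 had 258 and 291 counts with Control shRNA, MUC6 had 121 and 131, and CLDN18 had 66 and 56. Of the mesenchymal markers, CDH2 was near absent, with 3 and 3 counts with Control shRNA and 10 and 3 with USP47 shRNA. VIM, the mesenchymal intermediate filament, stood at 469.6 ± 1.63 CPM (counts scaled to library size after TMM normalization; SD, n = 2) with Control shRNA, and the fibroblast collagen gene COL1A1 at 930.4 ± 45.4 CPM (SD, n = 2). COL1A1 fell with USP47 shRNA (log2 fold change -0.75, SE 0.20, adjusted p = 0.0309, quasi-likelihood test of edgeR), while DCN, another fibroblast marker, had 172.7 ± 1.66 CPM against 203.8 ± 28.3 CPM (SD, n = 2; log2 fold change 0.24, SE 0.14, adjusted p = 0.269). Of the other markers, FN1, a mesenchymal matrix gene, fell by 1.34 on the log2 scale (adjusted p = 0.0006), and EPCAM, an epithelial adhesion gene with at most 12 counts in any library, fell by 1.84 (adjusted p = 0.0416), a call lost in 3 of 5 alternatives. The part of these markers in the differences of the AP-1 genes was not tested.

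AP-1 is a dimer of basic leucine zipper proteins. JUN proteins (JUN, JUNB and JUND) can pair with each other or with FOS proteins (FOS, FOSB, FOSL1 and FOSL2), whereas FOS proteins need a JUN partner to bind DNA. FOS, FOSB, JUN and JUNB are classical immediate-early genes, which are transcribed within minutes of growth factor or stress signals through factors already present in the cell and whose mRNAs decay quickly. JUND is expressed more steadily and is often the main subunit of resting cells. RNA levels alone do not give the amount or phosphorylation of the proteins.

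Because several of these genes differed together, their promoters are shown first. RefSeq promoter windows, 250 bases before to 50 bases after the transcription start, were given for 6 of the 7 genes, all but FOSL1, and each matched 1 place on its chromosome of GRCh37. Capitals mark the words TGACGT (the core of the cAMP response element, CRE), TGACATCA (the CRE-like site of JUN) and TGANTCA (the AP-1 site, TRE), searched on both strands. TGACGT and TGACGTCA, the full CRE, overlap by construction.
FOS, chr14:75745281-75745580, plus strand: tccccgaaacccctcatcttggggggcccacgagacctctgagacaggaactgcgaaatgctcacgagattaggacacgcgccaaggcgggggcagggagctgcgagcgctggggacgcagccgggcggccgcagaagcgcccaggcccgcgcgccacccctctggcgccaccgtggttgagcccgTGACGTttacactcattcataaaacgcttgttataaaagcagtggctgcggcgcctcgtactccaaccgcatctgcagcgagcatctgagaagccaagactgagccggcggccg
FOSB, chr19:45971004-45971303, plus strand: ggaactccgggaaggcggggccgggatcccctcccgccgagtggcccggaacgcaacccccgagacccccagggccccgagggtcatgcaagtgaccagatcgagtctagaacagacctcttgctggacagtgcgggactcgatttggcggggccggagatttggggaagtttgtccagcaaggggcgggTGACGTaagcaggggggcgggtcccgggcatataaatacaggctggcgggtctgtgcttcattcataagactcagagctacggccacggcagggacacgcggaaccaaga
FOSL2, chr2:28615475-28615774, plus strand: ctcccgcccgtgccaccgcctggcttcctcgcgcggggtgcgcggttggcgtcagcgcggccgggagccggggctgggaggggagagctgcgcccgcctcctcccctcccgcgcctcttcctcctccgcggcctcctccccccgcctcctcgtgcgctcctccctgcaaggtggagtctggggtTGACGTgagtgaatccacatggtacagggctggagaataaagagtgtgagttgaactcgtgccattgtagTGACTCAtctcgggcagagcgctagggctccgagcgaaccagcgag
JUN, chr1:59249670-59249969, minus strand: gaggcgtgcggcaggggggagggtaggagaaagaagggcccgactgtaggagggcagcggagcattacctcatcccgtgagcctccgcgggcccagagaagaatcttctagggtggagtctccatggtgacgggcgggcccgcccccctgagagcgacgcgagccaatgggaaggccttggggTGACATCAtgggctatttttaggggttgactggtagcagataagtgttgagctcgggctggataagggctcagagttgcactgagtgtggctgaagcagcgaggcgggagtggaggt
JUNB, chr19:12902050-12902349, plus strand: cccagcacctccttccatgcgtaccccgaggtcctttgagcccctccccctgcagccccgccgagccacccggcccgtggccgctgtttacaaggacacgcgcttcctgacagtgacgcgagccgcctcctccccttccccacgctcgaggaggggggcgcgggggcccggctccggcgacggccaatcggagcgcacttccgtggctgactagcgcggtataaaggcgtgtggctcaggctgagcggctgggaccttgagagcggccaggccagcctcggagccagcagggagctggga
JUND, chr19:18392383-18392682, minus strand: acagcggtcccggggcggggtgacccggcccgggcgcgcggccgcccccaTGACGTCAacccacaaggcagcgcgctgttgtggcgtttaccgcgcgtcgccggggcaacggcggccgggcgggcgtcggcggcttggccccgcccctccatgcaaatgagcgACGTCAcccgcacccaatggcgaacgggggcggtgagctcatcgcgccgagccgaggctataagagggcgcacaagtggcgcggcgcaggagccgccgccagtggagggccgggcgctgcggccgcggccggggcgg

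The 4 genes with the largest differences between the groups, FOSB, FOS, JUN and FOSL2, each held such a word at nearly the same distance before the start. TGACGT ended 59 bases before the start in FOS, 55 bases before it in FOSB and 61 bases before it in FOSL2, and TGACATCA ended 60 bases before it in JUN. A match to TGACGT or TGACATCA between bases -70 and -50 was present in 1.22% of 35116 RefSeq windows. This interval was chosen after the matches were seen. TGACATCA was searched as the known site of JUN, and the 4 genes were ranked by fold changes that had also selected them. The share of windows is therefore a description and no test. JUNB held none of the capitalised words, and the matches of JUND lay farther upstream, with a full TGACGTCA starting at base -200 and another TGACGT match starting at base -87 on the opposite strand. Over all windows TGACGT was present in 7.98%, TGACGTCA in 1.85%, TGACATCA in 2.61% and TGANTCA in 7.71%. The only TRE among the 6 windows was the TGACTCA of FOSL2, 5 to 11 bases after the start. TATAAA, the TATA word, was found in FOS, FOSB and JUNB (11.5% of all windows), and the CArG box, to which SRF binds, was found in none of the 6 (1.29% of all windows). Sites more than 250 bases before the start lay outside the windows, so the search does not show whether a gene has a CArG box farther upstream. These matches describe the letters of the windows only.

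**Figure D1:**
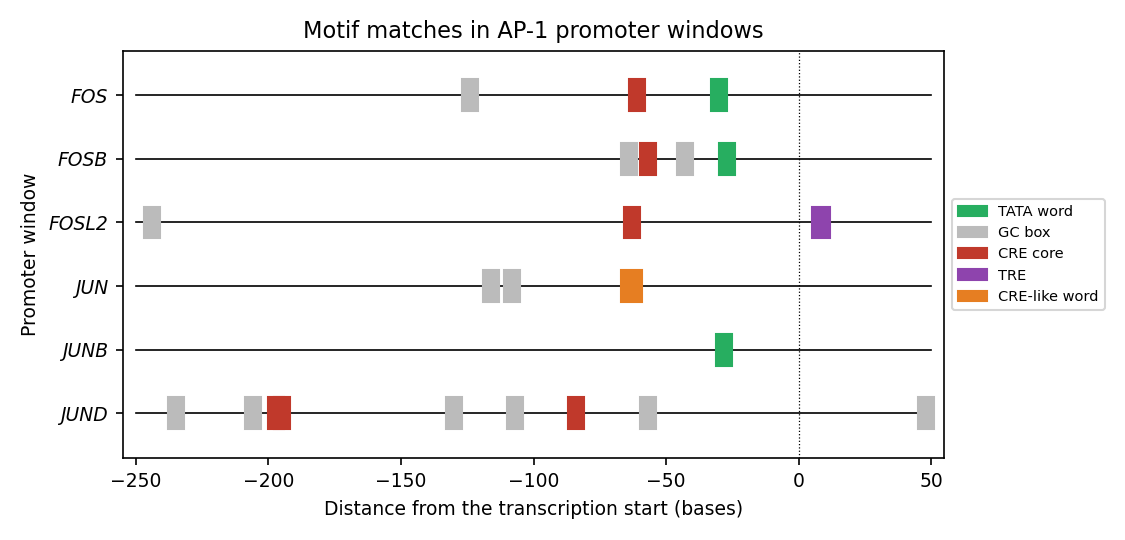
Motif matches in the promoter windows of 6 AP-1 genes, drawn by distance in bases from the transcription start (dotted line) for CRE core, CRE-like, TRE, TATA and GC box words on either strand. In FOS, FOSB, FOSL2 and JUN a CRE core or CRE-like word lies between bases -70 and -50, whereas JUNB has none.

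With USP47 shRNA, 5 of the 7 AP-1 genes were called higher (quasi-likelihood test of edgeR, Benjamini-Hochberg adjusted p under 0.05 across the genes tested), and 0 were called lower. Of all 21932 genes, 6.52% were called higher and 9.56% lower. In the same 5 genes both USP47 shRNA libraries lay above both control libraries, as they did in 29.3% of all genes, and 0 of the 7 genes showed the opposite order, found in 31.7% of all genes. The DESeq2 Wald test also called 5 genes higher and 0 lower, and 0 of the 7 were lower at an unadjusted p under 0.05 in edgeR. The median log2 fold change of the 7 was 1.50, beside -0.0083 for all genes tested.

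Among the FOS genes, FOS (ENSG00000170345.5), the founding member and an obligate partner of JUN proteins, had 16 and 23 counts with Control shRNA and 115 and 102 with USP47 shRNA. After TMM normalization this came to 0.943 and 1.17 CPM against 5.53 and 7.11 CPM. Both knockdown libraries were far above both controls, and the log2 fold change was 2.55 (SE 0.26), which placed FOS at rank 27 of the 21932 genes from the largest rise. FOSB (ENSG00000125740.9), whose product is best known for its long-lived truncated form in brain, had 23 and 33 counts against 180 and 171, or 1.36 and 1.68 CPM against 8.66 and 11.9 CPM. Its log2 fold change of 2.73 (SE 0.24) was the largest of the 7 and ranked 20. FOSB is overlapped on the other strand by ERCC1, a DNA repair gene, which had 459 and 646 counts against 632 and 593 (log2 fold change 0.25, SE 0.17, adjusted p = 0.335). The sources do not say whether counting used the strand, so reads shared by the pair cannot be told apart.

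FOSL2 (ENSG00000075426.7), which encodes FRA-2, was the most abundant FOS gene in every library, with 526 and 665 counts with Control shRNA and 1490 and 1619 with USP47 shRNA. In CPM the values were 31.0 and 33.9 against 71.7 and 112.8. The groups did not overlap, and the log2 fold change was 1.50 (SE 0.20), but the 2 knockdown libraries also stood apart from each other. A noncoding antisense gene, FOSL2-AS1, overlaps it and had 2 counts in each control library and 8 in each USP47 shRNA library, too few for the test. FOSL1 (ENSG00000175592.4, chromosome 11 of GRCh37, 65659520 to 65668044, minus strand), which encodes FRA-1, a subunit linked to invasive behaviour in carcinoma cells, differed in pattern from the other FOS genes. It had 18 and 25 counts with Control shRNA and 24 and 14 with USP47 shRNA, or 1.06 and 1.27 CPM against 1.15 and 0.975 CPM. The groups overlapped, and its log2 fold change was -0.12 (SE 0.32), with a 95% normal interval from -0.74 to 0.50, so a rise as large as that of the other 3 FOS genes lay outside the interval while a moderate change either way was not detectable at this depth. Its sign turned without Control shRNA replicate 2 (log2 fold change 0.018).

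Among the JUN genes, JUN (ENSG00000177606.5), the strongest activator of the group and a substrate of the JNK kinases, had 192 and 251 counts with Control shRNA and 735 and 858 with USP47 shRNA. This was 11.3 and 12.8 CPM against 35.3 and 59.8 CPM, with no overlap and a log2 fold change of 1.97 (SE 0.23). JUNB (ENSG00000171223.4), which often opposes JUN in growth control, had 475 and 661 counts against 1092 and 928, or 28.0 and 33.7 CPM against 52.5 and 64.7 CPM. Its groups did not overlap either, and its log2 fold change was 0.92 (SE 0.15), the smallest among the 5 genes called. Without Control shRNA replicate 1 it was 0.80 and JUNB lost its call, leaving 4 of 7. JUNB is overlapped on the other strand by HOOK2, a gene for a microtubule linker protein, which had 684 and 757 counts against 594 and 448 (log2 fold change -0.40, SE 0.13, adjusted p = 0.0595).

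JUND (ENSG00000130522.4) had the highest level of the 7 in every library, with 2018 and 2563 counts with Control shRNA and 2443 and 2316 with USP47 shRNA. In CPM it stood at 119.0 and 130.6 against 117.5 and 161.4, so that 1 knockdown library lay below both controls and the other above both. The log2 fold change was 0.16 (SE 0.16), with a 95% normal interval from -0.16 to 0.48. This value depended on the knockdown library. Without USP47 shRNA replicate 2 it was -0.084, and without USP47 shRNA replicate 1 it was 0.38 and JUND was called, making 6 of 7. The upper bound stayed below the log2 fold change of each of the 5 genes called, while a change in JUND within the interval was not detectable with these libraries. Of the 3 JUN genes, all have a single-exon canonical transcript in GENCODE release 44 on GRCh37, beside 4 exons in each FOS gene.

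**Figure D2:**
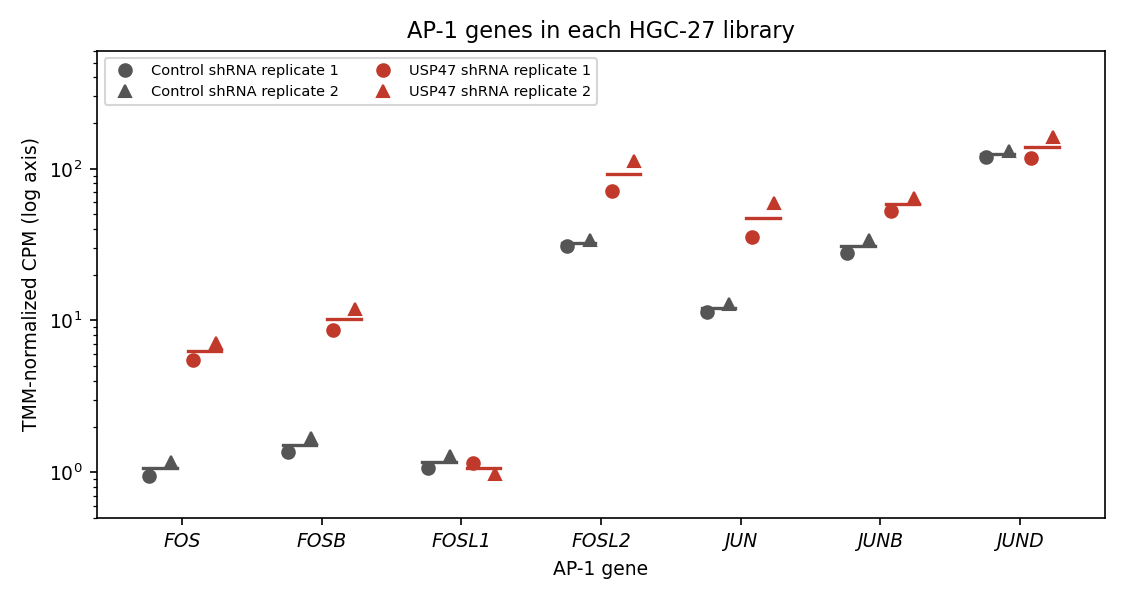
TMM-normalized CPM of each AP-1 gene on a log axis, with 1 point per library (circle for replicate 1, triangle for replicate 2) and a line at the mean of each group of 2. FOS rises from 0.943 and 1.17 to 5.53 and 7.11 CPM and JUN from 11.3 and 12.8 to 35.3 and 59.8 CPM, while the groups of FOSL1 and JUND overlap.

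The 2 knockdown libraries did not carry equal differences. In USP47 shRNA replicate 2 the CPM of JUN was 1.69 times that in replicate 1, that of FOSL2 1.57 times, that of FOSB 1.38 times, that of JUND 1.37 times, that of FOS 1.285 times and that of JUNB 1.23 times, whereas FOSL1 stood at 0.845 times. Some genes outside AP-1 also had more CPM in that library, such as VIM with 352.7 and 501.7 CPM in replicates 1 and 2 and HSPB1, a small heat shock protein gene, with 368.7 and 531.8 CPM. Others had less, such as HSP90AA1, another heat shock gene, with 1095.0 and 703.5 CPM and the mesenchymal marker ZEB1 with 101.0 and 68.1 CPM. On the TPM scale, which the authors computed per gene length and scaled to the same sum in every library, FOS stood at 2.48 and 2.38 in replicates 1 and 2, JUNB at 41.95 and 38.65, FOSB at 2.26 and 2.33 and JUND at 91.1 and 93.6. The order of the 2 knockdown libraries thus turned with the scale for FOS and JUNB. A single identifier, ENSG00000265150.1, took between 20.8% and 24.1% of the TPM of a library, so that TPM levels between libraries shift with it. Shares within a library do not, and the make-up of AP-1 is therefore given as shares.

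To compare genes with each other, levels per gene length (TPM) were used. With Control shRNA the order was JUND (91.1 ± 2.17 TPM, SD, n = 2), JUNB (23.1 ± 0.943), FOSL2 (6.19 ± 0.168), JUN (4.95 ± 0.0170), FOSL1 (0.843 ± 0.0332), FOS (0.444 ± 0.0283) and FOSB (0.372 ± 0.0232). FOS and FOSB were near the low end of the genes detected in both control libraries, with 20.3% and 18.2% of these at a lower TPM, and JUND was near the top, with 98.25% below it. FOS and FOSB did not differ in level beyond counting error, since in control replicate 1 the exact Poisson interval was 0.243 to 0.689 TPM for FOS and 0.2255 to 0.534 TPM for FOSB.

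With USP47 shRNA the order changed in 2 places. JUN (17.5 ± 2.90 TPM, SD, n = 2) came before FOSL2 (15.8 ± 1.83 TPM), although their libraries overlapped, with 15.4 and 19.5 TPM for JUN and 14.5 and 17.1 TPM for FOSL2. FOS (2.43 ± 0.0672 TPM) and FOSB (2.29 ± 0.0479 TPM) came before FOSL1 (0.724 ± 0.231 TPM), with no overlap. JUND and JUNB kept the first places, at 92.4 ± 1.79 and 40.3 ± 2.33 TPM. Between FOS and FOSB the exact Poisson intervals again overlapped, with 2.045 to 2.97 TPM for FOS and 1.94 to 2.62 TPM for FOSB in USP47 shRNA replicate 1. These intervals cover counting error only.

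The make-up of AP-1 mRNA moved away from JUND. JUND made up 72.4% and 71.0% of the summed TPM of the 7 genes with Control shRNA and 54.0% and 53.75% with USP47 shRNA. The share of JUN went from 3.88% and 3.92% to 9.15% and 11.2%, that of JUNB from 17.6% and 18.9% to 24.9% and 22.2%, and that of FOSL2 from 4.93% and 4.815% to 8.61% and 9.82%. FOS went from 0.332% and 0.368% to 1.47% and 1.37%, and FOSB from 0.278% and 0.308% to 1.34% in both. FOSL1 was the only gene besides JUND with a smaller mean share, 0.663% ± 0.0331 (SD, n = 2) against 0.424% ± 0.144. Apart from FOSL1, whose shares also did not overlap, each share in a knockdown library lay outside the range of the control libraries by more than the difference between replicates of either group. A share can fall with no fall in the gene, because the mean sum of the 7 went from 127.1 to 171.4 TPM. The TPM of FOSL1 overlapped between groups, with 0.819 and 0.866 against 0.887 and 0.561, and the mean TPM of JUND was 91.1 against 92.4. In shares of raw counts, which weigh long transcripts more, the groups of JUNB overlapped, with 14.5% and 15.7% against 18.0% and 15.45%, and its mean share moved by 1.61 percentage points in place of 5.32. FOSL2 moved by 9.80 points in place of 4.34 and FOSB by 2.16 in place of 1.05. Since the rule for these genes used this contrast, no test was made.

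FOS genes together took 6.18% of the summed TPM in both control libraries and 11.9% and 12.8% with USP47 shRNA. For each TPM unit of FOS mRNA there were 15.2 units of JUN mRNA, summed over each family, in both control libraries and 7.37 and 6.79 with USP47 shRNA. The JUN-family sum was thus larger than the FOS-family sum in every library. The gene JUN alone stayed below the FOS-family sum, which was 7.91 and 7.79 TPM with Control shRNA and 20.1 and 22.4 TPM with USP47 shRNA. Within the FOS family FOSL2 held 79.8% and 77.9% of the TPM with Control shRNA and 72.1% and 76.4% with USP47 shRNA, while FOS and FOSB together went from 9.86% and 10.9% to 23.5% and 21.05%. Within the JUN family the share of JUN went from 4.13% and 4.175% to 10.4% and 12.9%. JUND mRNA was 18.7 and 18.1 times as abundant as JUN mRNA with Control shRNA and 5.90 and 4.79 times with USP47 shRNA.

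**Figure D3:**
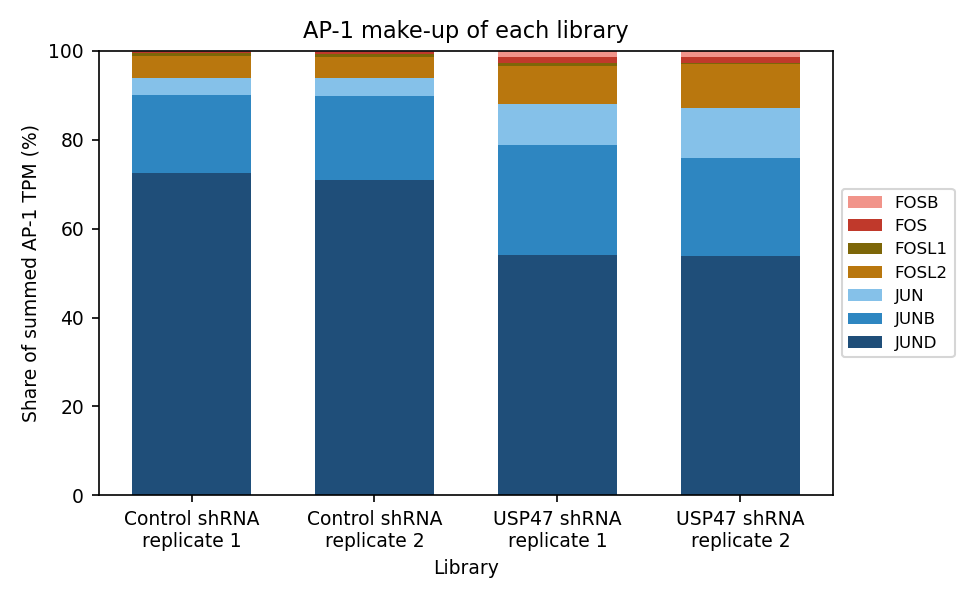
Share of each AP-1 gene in the summed TPM of the 7 genes, in percent, stacked for each of the 4 libraries. JUND takes 72.4% and 71.0% with Control shRNA and 54.0% and 53.75% with USP47 shRNA, and JUN, JUNB, FOSL2, FOS and FOSB take larger shares in both knockdown libraries.

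In absolute terms the 2 genes with the largest fold changes, FOSB and FOS, added little. The summed TPM of the 7 genes was 128.0 and 126.2 with Control shRNA and 168.6 and 174.2 with USP47 shRNA, a ratio of group means of 1.35, and on the scale of TMM-normalized CPM per kilobase the ratio was 1.49. Of the added TPM, JUNB supplied 38.7%, JUN 28.3% and FOSL2 21.7%, while FOS supplied 4.48% and FOSB 4.34%. On the scale of CPM per kilobase, JUNB supplied 33.8%, JUN 23.6%, FOSL2 18.4% and JUND 17.3% of the increase, beside 2.76% for JUND in TPM. The part of JUND thus rested on the scale, as its fold change rested on 1 knockdown library.

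A sequence feature of the mRNAs was also compared, since short-lived transcripts often carry the AU-rich pentamer ATTTA in the 3' UTR. FOS held 5 of these in 806 bases, a density above that of 95.3% of 13300 tested genes with a 3' UTR of at least 50 bases, and JUNB held 2 in 500 bases (84.5%). FOSL2 held 9 in 4869 bases, JUN 3 in 1284, FOSB 3 in 2167, JUND 1 in 747 and FOSL1 1 in 837, all between 40.9% and 61.2% of genes in density. The pentamer was present in 72.8% of the 13300 genes, in 71.9% of those called higher and in 74.5% of those called lower, so its presence differed little between genes called and all genes.

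The genes around AP-1 were read from 8 lists, which hold 127 distinct genes, none of them among the 7. Of the 109 tested, 28 were called higher and 6 lower, or 25.7% and 5.505% beside 6.52% and 9.56% of all genes. The same shares of all genes stand beside the calls of each list below, some of which rest on few genes. The numbers in this and the following paragraphs depend on the libraries used. Without Control shRNA replicate 1 there were 8 called higher and 2 lower, without Control shRNA replicate 2 there were 18 and 2, without USP47 shRNA replicate 1 there were 50 and 14, and without USP47 shRNA replicate 2 there were 33 and 16.

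Other immediate-early genes were called higher in 10 of 23 tested and lower in 0, with a median log2 fold change of 0.57 (12 were higher and 0 lower at an unadjusted p under 0.05 in edgeR, and DESeq2 called 7 higher and 0 lower). KLF6, a zinc finger factor, went from 40.8 and 43.9 to 70.35 and 93.6 CPM (log2 fold change 0.95, SE 0.15, adjusted p = 0.0040, edgeR). DUSP1, the phosphatase that inactivates JNK and p38, went from 6.90 and 8.66 to 14.6 and 18.4 CPM (log2 fold change 1.07, SE 0.18, adjusted p = 0.00478). EGR1, the zinc finger factor most often induced together with FOS, went from 2.06 and 1.43 to 3.65 and 5.92 CPM (log2 fold change 1.44, SE 0.30, adjusted p = 0.0115). No library of one group overlapped the other in these 3 genes. NR4A1, a nuclear receptor of the same early class, had a log2 fold change of 0.091 (SE 0.19, adjusted p = 0.777) and IER2 one of 0.30 (SE 0.14, adjusted p = 0.174). NR4A2 and NR4A3, of the same list, were called higher, with log2 fold changes of 1.07 (SE 0.20, adjusted p = 0.00778, edgeR) and 1.03 (SE 0.26, adjusted p = 0.0245). The call of NR4A3 was lost under the DESeq2 Wald test and with library size alone. EGR3 and ZFP36 were also called higher, and both calls were lost under the DESeq2 Wald test, with library size alone and with no filter. EGR3 had 5 and 1 counts with Control shRNA and 13 and 14 with USP47 shRNA, so it passed the filter only through the USP47 shRNA libraries. Of the 23 genes, 19 had a log2 fold change above 0 and 4 below 0. Both knockdown libraries lay above both controls in 17 and below both in 2, beside 29.3% and 31.7% of all genes. Without Control shRNA replicate 1, 4 genes of the list were called higher, and without USP47 shRNA replicate 1, 16.

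Factors and cofactors that act on the FOS and JUN promoters were called higher in 3 of 13 tested and lower in 1, with a median log2 fold change of 0.25. SRF, which binds the serum response element of FOS, rose from 48.05 and 56.1 to 81.4 and 101.0 CPM (log2 fold change 0.81, SE 0.15, adjusted p = 0.00688, edgeR). Its partner ELK4, an ETS factor of the ternary complex, had a log2 fold change of 0.62 (SE 0.12, adjusted p = 0.0105), and MEF2D, a factor that acts on JUN, one of 0.78 (SE 0.16, adjusted p = 0.0113). MRTFB, an actin-regulated cofactor of SRF, fell from 91.4 and 85.4 to 56.7 and 51.7 CPM (log2 fold change -0.70, SE 0.13, adjusted p = 0.00628). Without Control shRNA replicate 1, 0 genes of this list were called, and without USP47 shRNA replicate 1, 7 were called higher and 3 lower.

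Kinases of the MAP kinase cascades were called higher in 7 of 22 and lower in 2, with a median log2 fold change of 0.30. RPS6KA5 and RPS6KA4, which encode the mitogen- and stress-activated kinases MSK1 and MSK2 that phosphorylate CREB and histone H3 at early genes, had log2 fold changes of 0.97 (SE 0.15, adjusted p = 0.00328, edgeR) and 0.84 (SE 0.15, adjusted p = 0.00526). RPS6KA5 went from 11.9 and 11.8 to 25.2 and 21.2 CPM. BRAF, a kinase at the top of the ERK cascade, had a log2 fold change of 0.55 (SE 0.12, adjusted p = 0.0158). MAPK10, the JNK gene best known from neurons, fell from 4.01 and 3.47 to 1.39 and 1.12 CPM (log2 fold change -1.54, SE 0.25, adjusted p = 0.00418), and MAPK11, a p38 gene, had a log2 fold change of -0.54 (SE 0.16, adjusted p = 0.0489), a call lost in 4 of 6 alternatives, among them the DESeq2 Wald test and library size alone. MAPK8, another JNK gene, had a log2 fold change of 0.095 (SE 0.14, adjusted p = 0.678, edgeR). MAPK9, a JNK gene with more CPM than MAPK8 in every library, went from 55.7 and 58.6 to 45.6 and 45.2 CPM. It was not called (log2 fold change -0.33, SE 0.12, adjusted p = 0.0933, edgeR). Without either control library 2 kinases were called higher, and without USP47 shRNA replicate 1, 13.

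Genes for the turnover of AU-rich mRNAs were called higher in 4 of 8 and lower in 0, with a median log2 fold change of 0.36 (1 was lower at an unadjusted p under 0.05 in edgeR, and DESeq2 called 3 higher and 0 lower). ZFP36L1 and ZFP36L2, which bind AU-rich elements and recruit deadenylases, had log2 fold changes of 0.84 (SE 0.14, adjusted p = 0.00487, edgeR) and 0.72 (SE 0.13, adjusted p = 0.00725). KHSRP, another decay factor, had one of 0.62 (SE 0.15, adjusted p = 0.0215). In each of these 3 genes both knockdown libraries lay above both controls, as they did in 29.3% of all genes. Without Control shRNA replicate 1, 0 genes of this list were called.

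Ubiquitin ligase genes listed for the turnover of FOS and JUN proteins were called higher in 1 of 9 tested and lower in 1. FBXW7, a ligase subunit for phosphorylated JUN, had a log2 fold change of 0.48 (SE 0.14, adjusted p = 0.0389, edgeR), a call lost under the DESeq2 Wald test, with library size alone and with no filter. SKP2, another ligase subunit of this list, had one of -0.65 (SE 0.13, adjusted p = 0.00921). ITCH, the JNK-regulated ligase of JUN, had a log2 fold change of 0.19 (SE 0.12, adjusted p = 0.325). Both calls of this list were lost without either control library.

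Other basic leucine zipper genes whose products can join AP-1 were called higher in 2 of 12 tested and lower in 1, and their median log2 fold change was -0.032. ATF7 had a log2 fold change of 0.61 (SE 0.13, adjusted p = 0.0134, edgeR) and MAF one of 1.05 (SE 0.29, adjusted p = 0.0334), the latter with 5.00 and 9.62 CPM in the knockdown libraries against 3.48 and 3.42 CPM in the controls. The call of MAF was lost with library size alone and with no filter. BATF3, a partner that lacks an activation domain, fell from 3.07 and 3.67 to 1.64 and 1.53 CPM (log2 fold change -1.08, SE 0.24, adjusted p = 0.0159), a call that DESeq2 did not make. ATF3, the stress-induced partner of JUN, missed the threshold (log2 fold change 0.57, SE 0.18, adjusted p = 0.0526).

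Genes known as AP-1 targets from other cells did not share a direction. Of 26 listed, 14 passed the filter, 4 were called higher and 1 lower, and the median log2 fold change was -0.051. CLU, the chaperone clusterin, went from 14.0 and 17.2 to 54.1 and 47.5 CPM (log2 fold change 1.70, SE 0.15, adjusted p = 0.00047, edgeR), and HMOX1, heme oxygenase, from 8.37 and 10.1 to 17.2 and 18.5 CPM (log2 fold change 0.94, SE 0.16, adjusted p = 0.00467). DUSP1, described above, also belongs to this list, and CCND1, which encodes cyclin D1, had a log2 fold change of 0.50 (SE 0.14, adjusted p = 0.0322). PLAUR, the urokinase receptor, was the gene called lower (log2 fold change -0.82, SE 0.22, adjusted p = 0.0298), and its call was lost under the DESeq2 Wald test and with library size alone. The metalloproteinase genes MMP1, MMP3, MMP10 and MMP13, textbook AP-1 targets, had at most 3 counts in any library, so no difference was detectable at this depth. Without USP47 shRNA replicate 2, 5 genes of this list were called lower, and without Control shRNA replicate 1, 2 were called higher and 0 lower.

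Heat shock genes, listed as a sign of handling stress, were called higher in 0 of 12 and lower in 0 by edgeR. At an unadjusted p under 0.05, 3 were higher and 1 lower, and DESeq2 called 1 higher. Both knockdown libraries lay above both controls in 7 of the 12 and below both in 2, beside 29.3% and 31.7% of all genes. Their median log2 fold change was 0.25, and HSPB1, a small heat shock protein gene, had one of 0.54 (SE 0.18, adjusted p = 0.0633). Without USP47 shRNA replicate 1, 5 were called higher and 3 lower. The part of such stress in the differences of the AP-1 genes was not tested.

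By likeness of pattern over the 4 libraries (Euclidean distance of log2 CPM after subtraction of the control mean, among 15786 genes whose average log2 CPM was 1 or more), the genes nearest to FOS were CYP26B1 (distance 0.434), which degrades retinoic acid, DOK5 (0.519), an adaptor of receptor tyrosine kinases, and PPP3R2 (0.590), a calcineurin subunit. The same 3 genes were nearest to FOSB, with DOK5 first (0.285). Nearest to JUN were KCNJ12 (0.307), a potassium channel, IFITM10 (0.310) and ELAVL3 (0.408), a neuronal RNA-binding protein. These genes rest on few reads in the controls, such as 21 and 26 counts for CYP26B1 and 16 in each library for KCNJ12. DOK5 had 0.472 and 0.561 CPM with Control shRNA and 3.03 and 5.44 with USP47 shRNA, so it met the required level only through the USP47 shRNA libraries. With the control mean subtracted, the distance mainly follows the difference between the groups, on which FOS, FOSB and JUN had been selected. The likeness is therefore a description, and 4 libraries give little means to tell patterns apart.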

How the data were processed

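RNA-Seq was analysed from 4 libraries of HGC-27 cells, 2 with Control shRNA and 2 with USP47 shRNA. Per the methods, the authors trimmed bases below a quality score of 20, mapped reads to hg19 with STAR 2.7.5c and used SAMtools 1.9 to drop low-quality and duplicate reads. Without molecular identifiers, removing duplicates can lower the counts of short, abundant transcripts. featureCounts is named in the submitters' processing notes with no role, and the annotation and strand setting of the counting are not given in the sources used here. The labels name a stranded library kit, while the methods name another kit. The deposited counts are raw reads per gene, the deposited TPM values are per gene length and reach the same sum in every library, and the deposited FPKM values were used only to recover the gene lengths the authors used. Read totals were 15649899 to 20140273 per library, and intervals from counts cover counting error only.

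Counts were scaled by TMM and tested with edgeR 4.0.16 (filterByExpr, glmQLFit with robust estimation, glmQLFTest) in R 4.3.3, with p-values adjusted by Benjamini-Hochberg over all 21932 genes and a threshold of 0.05. Standard errors are the log2 fold change divided by the root of the F statistic. DESeq2 1.42.0 (Wald test) was an alternative, beside other scalings, other filters, a replicate block and leaving out each library. The fits were run on simulated counts with the same dispersion for every gene, as a check of the code and not of the calls made here. Members were matched by symbol, and their overlapping genes, exons and 3' UTRs were read from GENCODE release 44 mapped to GRCh37. Promoter windows came from RefSeq (GRCh38.p14) and were placed in GRCh37 by exact match. The members and the lists were chosen with earlier results of these data known. The rule for named genes took all 7 members, USP47, up to 3 genes with the smallest p in each direction of each list, genes whose role needed naming, and the 3 genes nearest in pattern to FOS, FOSB and JUN. The window positions, the ATTTA counts, the Poisson intervals and the CPM per kilobase were added after the data were seen.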

Additional observations from a re-analysis of the deposited data

How the results depend on the processing

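Under the 6 alternatives that kept all 4 libraries, 5 AP-1 genes were called higher and 0 lower each time. The number called higher was 4 to 6 when a library was left out, and the log2 fold change of USP47 then lay between -1.75 and -1.01. Leaving out a library moved the log2 fold change of JUND between -0.084 (without USP47 shRNA replicate 2) and 0.38 (without USP47 shRNA replicate 1), and that of FOSL1 between -0.26 and 0.018 (without Control shRNA replicate 2), so the sign of both turned. Of the distinct list genes, 8 to 50 were called higher and 2 to 16 lower with a library left out, beside 28 and 6, and the DESeq2 Wald test called 3 lower. Each such fit assumes that the lone library of a group varies like those of the other. With the replicate block 46 list genes were called higher and 14 lower, and 3530 and 3892 of all genes. Across genes, the deviations of replicate 1 from its group mean correlated between the 2 groups at 0.213. No source says that a number marks a shared batch, so the numbers were not read as pairs. In raw counts, which depend on gene length, the share of JUND moved by -21.9 percentage points in place of -17.8, JUNB by 1.61, FOSL2 by 9.80, FOS by 1.28 and FOSB by 2.16. Per annotated exon length FOSB moved by 1.07 in place of 1.05. The ratio of summed AP-1 levels was 1.35 in TPM and 1.49 in CPM per kilobase. The cause of these differences was not tested. Low counts of FOS, FOSB and FOSL1 in the controls limit the precision of their levels.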
